A study of Mus musculus with 8 samples.

Results

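The genes described here encode the subunits, assembly chaperones, activators and inhibitor of the proteasome. They were taken as every probe whose symbol in the platform annotation begins with Psma, Psmb, Psmc, Psmd, Psme, Psmf or Psmg. The rule found 53 probes for 49 genes, of 23473 probes for 19321 genes on the array. All 53 passed the filter on dim probes, and all lay above the limit set by the blank spots on each of the 8 arrays. Psmc3ip, which encodes a factor of meiotic recombination, and Psme3ip1, which encodes a partner of the nuclear activator, came in through their symbols and are not proteasome subunits. Psme2 and Psmg4 were not among the annotated symbols and are not analysed here. The probe for Psme2b, a near-identical copy of Psme2, may read either gene, so its source is uncertain.

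RNA of the brain was measured in male C57Bl/6J mice of 9 weeks that drank water (2 mice, sampled at day 0) or trehalose, a disaccharide of glucose, for 1 day (3 mice) or for 10 days (3 mice). All mice had 1 week to acclimatize, were fasted for 6 h before sampling and were perfused under anesthesia, and each mouse gave 1 one-colour array. The labels name the cerebral cortex as the tissue, whereas the design text names the frozen left hemisphere. Each cage held 3 mice, and neither the cage of each mouse nor the dose of trehalose was given. No water mice were sampled at 1 or 10 days, so trehalose and the time of sampling cannot be told apart. The same 2 water mice serve every comparison with control, so the results at both times share their error. P-values measure the spread between these mice only.

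The proteasome degrades proteins that carry ubiquitin chains. Its core particle stacks outer alpha rings on inner beta rings whose catalytic subunits face a closed chamber, and a regulatory particle, made of a base with a ring of ATPases and a lid, binds ubiquitin chains, removes them and feeds the unfolded substrate into the core. In the brain it clears short-lived synaptic and misfolded proteins, beside autophagy, the bulk pathway that trehalose is often used to stimulate.

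The proteasome genes of the brain were measured at nearly the same level in water and trehalose mice. None of the 53 probes passed an adjusted p of 0.05 in limma in any comparison, nor did any of the 21583 probes tested (a background of 0%). An unadjusted p under 0.05 was seen for 3 members at 1 day, 2 at 10 days and 1 between the times (backgrounds of 3.65%, 2% and 3.5% of all probes). The median log2 change of the 53 probes was -0.0072 at 1 day and 0.0027 at 10 days, against -0.0003 and -0.0017 over all probes tested. At 1 day 22 probes were higher than control and 31 lower, and at 10 days 28 were higher and 25 lower. At 1 day the largest differences, in both directions, lay in the non-ATPase subunits of the regulatory particle, and at 10 days the highest was Psmd7 among them and the lowest the activator probe Psme2b (-0.13). Psmd12 and Psmd7 were above control on all 6 trehalose arrays, and were among 594 such probes of the 21583 tested.

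The precision of these values differed by probe. The 95% interval of the log2 change excluded a change of 1.5-fold in either direction for 52 of the 53 probes at 1 day (98.1%, against 98.7% of all probes) and for all 53 at 10 days. The exception was Psmd13 at 1 day. A change of 1.2-fold was excluded for 33 probes at 1 day (62.3%, against 78.2% of all probes) and for 34 at 10 days (64.2%, against 80.5%). The median SD within groups was 0.094 on the log2 scale for the proteasome probes and 0.0639 over all probes. The proteasome probes were the brighter set, with a median log2 level of 9.50 to 9.76 per array against 6.83 over all probes. Brightness was not matched, so the gaps in SD and in the 1.2-fold shares cannot be read as a trait of proteasome genes. Some members were dim: the median spot of Psma8, the testis alpha subunit, was 1.34 times the mean of the blank spots, that of Psmb11, the thymus beta subunit, 1.56 times, and that of the dimmer probes of Psmd8, Psmd5 and Psmd3 was 1.38, 1.59 and 1.68 times. An offset added before the logarithm compresses changes of such probes, so their narrow intervals bound little. The same offset acts on the dim probes within the values for all probes.

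**Figure D1:**
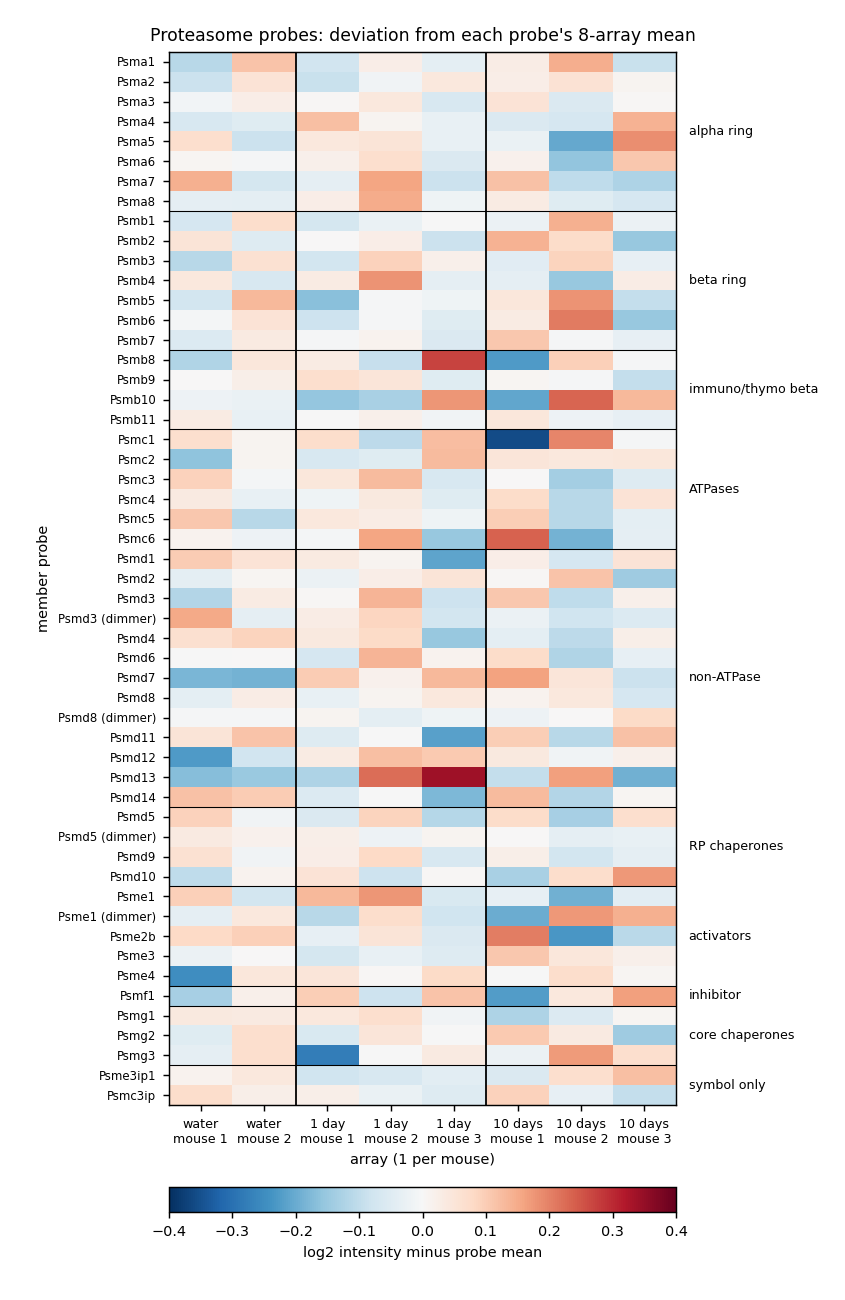
Heat map of the 53 proteasome probes (rows, grouped by role) on the 8 arrays (columns, 1 per mouse); colour gives log2 intensity minus the probe's mean over the 8 arrays. Most cells are pale in all 3 groups, and the strongest colours fall on single arrays, such as 10 days mouse 1 for Psmc1.

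The core particle lay close to control. The alpha ring holds the gate of the chamber, and of its 8 probes 4 were higher and 4 lower than control at each time, with medians of 0.0016 and 0.0026 on the log2 scale. Psma4, one of the 7 ring subunits found in most tissues, read 9.91 and 9.93 in water, 10.10, 9.99 and 9.94 at 1 day, and 9.92, 9.91 and 10.11 at 10 days (log2 intensity on each array). Its 1-day arrays lay above both water arrays, by 0.09 (SE 0.0724), and its 10-day arrays overlapped them. Psma8 gave the same picture at 0.09 (SE 0.056), from a probe near background.

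Of the 7 probes of the constitutive beta ring, 2 were higher at 1 day and 5 lower, and 6 were higher at 10 days and 1 lower, with medians of -0.020 and 0.019. Psmb5, which carries the chymotrypsin-like activity, read 11.48 and 11.68 in water, 11.39, 11.55 and 11.54 at 1 day, and 11.60, 11.73 and 11.46 at 10 days. Psmb6, the caspase-like subunit, read 11.33 and 11.40 in water, 11.26, 11.34 and 11.29 at 1 day, and 11.38, 11.55 and 11.19 at 10 days. The groups overlapped for both genes at both times. Psmb7, the trypsin-like subunit, read 10.35 and 10.44 in water, 10.40, 10.42 and 10.34 at 1 day, and 10.51, 10.40 and 10.37 at 10 days, again with overlap. The log2 change at 1 day was -0.09 (95% interval -0.31 to 0.13) for Psmb5, -0.07 (-0.28 to 0.14) for Psmb6 and -0.0072 (-0.13 to 0.12) for Psmb7. At 10 days the changes were 0.014, 0.0073 and 0.03.

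Interferon can replace these catalytic subunits by Psmb8, Psmb9 and Psmb10, which form the immunoproteasome and favour peptides for MHC class I. Psmb8, the counterpart of Psmb5, read 7.18 and 7.34 in water, 7.33, 7.21 and 7.57 at 1 day, and 7.07, 7.39 and 7.29 at 10 days. Psmb9, the counterpart of Psmb6, read 6.38 and 6.40 in water, 6.45, 6.43 and 6.33 at 1 day, and 6.39, 6.38 and 6.29 at 10 days, and its median spot was 2.03 times the blank mean. Psmb10, the counterpart of Psmb7, read 8.84 and 8.83 in water, 8.71, 8.73 and 9.04 at 1 day, and 8.66, 9.09 and 8.99 at 10 days. For Psmb10 the trehalose mice fell on both sides of the water mice at each time, and none of the 3 genes had groups that lay apart. The change at 10 days was -0.0084 (-0.30 to 0.28) for Psmb8, -0.04 (-0.16 to 0.07) for Psmb9 and 0.08 (-0.25 to 0.40) for Psmb10. A change of 1.5-fold lay outside each interval. The offset compresses the changes of a probe as dim as that of Psmb9, so its interval bounds little. With the blank mean subtracted, the 10-day change of Psmb9 was -0.125. Of 17 probes of interferon and MHC class I genes, 11 were higher than control at 1 day and 6 lower, and 8 were higher at 10 days and 9 lower. None passed the adjusted threshold in limma, and 1 had an unadjusted p under 0.05 at each time. Irf9, a partner of the interferon-activated STAT factors, had the lowest p of that list at 1 day (0.17, unadjusted p = 0.0172, adjusted p = 1).

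**Figure D2:**
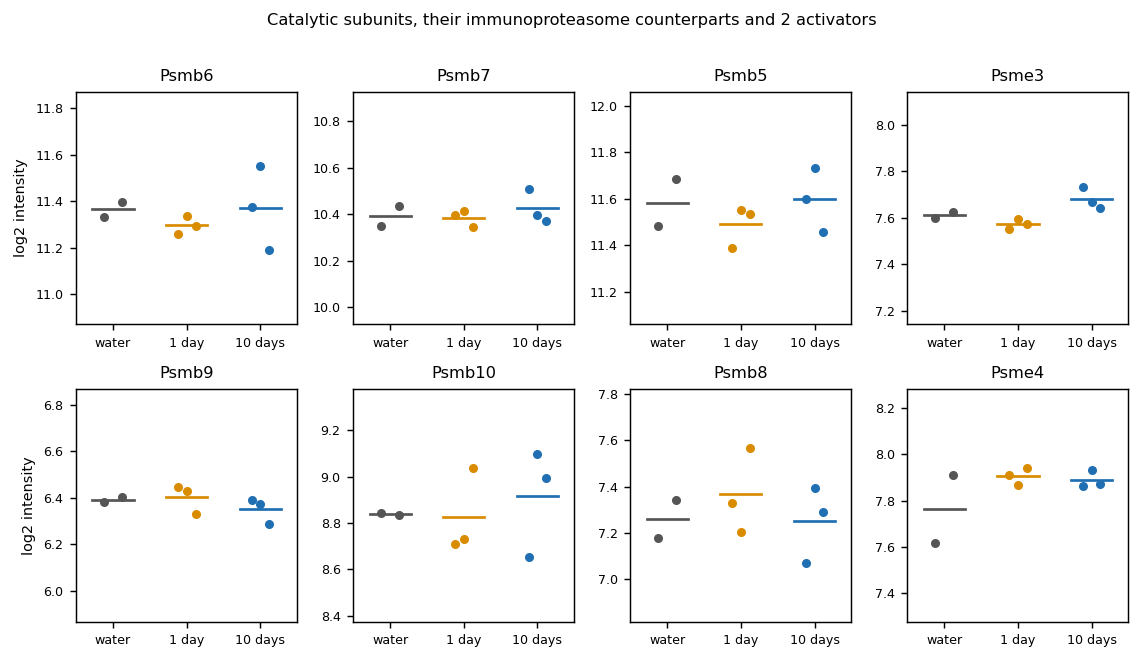
Log2 intensity of the catalytic subunits Psmb6, Psmb7 and Psmb5 above their immunoproteasome counterparts Psmb9, Psmb10 and Psmb8, with the activators Psme3 and Psme4; points are mice, lines are group means, and every panel spans the same number of log2 units. Trehalose and water mice overlap for all 6 catalytic subunits, whereas the 1-day and 10-day mice of Psme3 lie on either side of the water mice.

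The ATPases of the base unfold the substrate. Of their 6 probes 3 were higher and 3 lower at each time. Psmc2 read 10.98 and 11.15 in water, 11.08, 11.09 and 11.27 at 1 day, and 11.19, 11.19 and 11.19 at 10 days. Its 10-day arrays lay above both water arrays, by 0.12 (SE 0.0707, unadjusted p = 0.131 in limma). Psmc1, among the 3 members with the largest spread within groups, read 11.13 and 11.07 in water, 11.13, 10.96 and 11.18 at 1 day, and 10.70, 11.25 and 11.06 at 10 days. Mouse 1 at 10 days was the lowest of the 8 and mouse 2 at 10 days the highest, and the groups overlapped.

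The other subunits of the regulatory particle, 13 probes for 11 genes, held the widest changes at 1 day. Groups are said to lie apart where every array of one is above every array of the other. At 1 day 11 of the 53 proteasome probes lay apart from control (20.8%, against 18.2% of all probes), 5 of them higher and 6 lower (8.98% and 9.19% of all probes). The count was 13 under cyclic loess (24.5%, against 18.3% of all probes), 7 under median scaling (13.2%, against 15.7%) and 5 in the authors' processed values (9.43%, against 13.7%), so the proteasome probes lay above or below the background by setting. Of the 13 non-ATPase probes 6 lay apart (46.2%), with Psmd12, Psmd7 and Psmd13 higher and Psmd14, Psmd11 and Psmd1 lower. All but Psmd1, a scaffold of the base, are lid subunits, as are most of the 13 non-ATPase probes. This grouping was noticed after the values were seen, and no test was run on the share. Of the 13, 5 lay apart under median scaling (38.5%), 6 under cyclic loess (46.2%) and 4 in the authors' processed values (30.8%), beside the shares of all probes just given for those settings.

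Psmd12, a scaffold subunit of the lid, read 9.30 and 9.45 in water, 9.56, 9.65 and 9.64 at 1 day, and 9.57, 9.51 and 9.55 at 10 days. All 6 trehalose arrays lay above both water arrays. The change was 0.24 at 1 day (SE 0.0531, 95% interval 0.12 to 0.36, 1.18-fold), the lowest p of any member, at rank 30 of the 21583 probes (limma, unadjusted p = 0.00223, adjusted p = 1). At 10 days it was 0.17 (0.04 to 0.29, 1.12-fold, unadjusted p = 0.0145, adjusted p = 1). The size depended on which water mouse was kept. Without water mouse 1, the lower of the pair, the change was 0.16 at 1 day and 0.09 at 10 days. Without water mouse 2 it was 0.31 and 0.24. A pair of water mice cannot show which of them is the unusual one.

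Psmd7, the lid subunit that pairs with the deubiquitinase Psmd14, read 10.29 and 10.28 in water, 10.57, 10.49 and 10.60 at 1 day, and 10.63, 10.52 and 10.38 at 10 days. All 6 trehalose arrays lay above both water arrays, which were close to each other. The change was 0.27 at 1 day (SE 0.071, 95% interval 0.10 to 0.43, 1.21-fold) and 0.23 at 10 days (0.06 to 0.39, 1.17-fold). In limma the unadjusted p was 0.00569 and 0.0135, and the adjusted p was 1 at both times. Leaving out either water mouse gave 0.27 at 1 day, and leaving out 1 mouse of any group kept the 10-day change between 0.17 and 0.29. Without either water mouse the unadjusted p at 10 days was above 0.05 in limma (0.0515 and 0.056).

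Psmd14, which cuts ubiquitin chains from the substrate, read 10.21 and 10.20 in water, 10.04, 10.09 and 9.91 at 1 day, and 10.22, 9.98 and 10.10 at 10 days. The 1-day arrays lay below both water arrays, and the 10-day arrays overlapped them. The change was -0.19 at 1 day (SE 0.0772, 95% interval -0.37 to -0.0092, unadjusted p = 0.0417 in limma, adjusted p = 1) and -0.10 at 10 days. The 2 partners of the lid's deubiquitinase pair thus lay on opposite sides of control at 1 day; the difference between them was not tested.

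Psmd13, a further lid subunit, read 9.27 and 9.29 in water, 9.31, 9.66 and 9.77 at 1 day, and 9.34, 9.60 and 9.24 at 10 days. Mouse 1 at 1 day was barely above the water mice, and the other two 1-day mice and mouse 2 at 10 days stood well above them. The change at 1 day was 0.30 with a wide interval (-0.03 to 0.64, unadjusted p = 0.069 in limma). Psmd11, a lid scaffold, read 10.45 and 10.51 in water, 10.35, 10.40 and 10.18 at 1 day, and 10.50, 10.29 and 10.52 at 10 days, a 1-day change of -0.17 (SE 0.086). Psmd1 read 10.61 and 10.56 in water, 10.54, 10.51 and 10.29 at 1 day, and 10.53, 10.44 and 10.56 at 10 days. For Psmd14, Psmd11 and Psmd1 alike, mouse 3 was the lowest of the 1-day mice.

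Psmd3 and Psmd8, lid subunits with a pair of probes each, had probes of opposite sign at 1 day. The brighter Psmd3 probe read 9.87 and 10.03 in water, 10.00, 10.13 and 9.91 at 1 day, and 10.10, 9.89 and 10.01 at 10 days, with changes of 0.06 and 0.05. The dimmer read 6.35 and 6.16 in water, 6.23, 6.29 and 6.13 at 1 day, and 6.18, 6.12 and 6.15 at 10 days, with changes of -0.05 and -0.11. The groups of both Psmd3 probes overlapped at both times. The brighter Psmd8 probe read 9.68 and 9.75 in water, 9.69, 9.73 and 9.76 at 1 day, and 9.73, 9.76 and 9.65 at 10 days. The dimmer Psmd8 probe read 6.03 and 6.03 in water, 6.05, 6.00 and 6.02 at 1 day, and 6.02, 6.04 and 6.12 at 10 days. All changes of Psmd8 lay between -0.0094 and 0.025.

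At 10 days 8 of the 53 probes lay apart from control (15.1%, against 13.4% of all probes). Psmd12, Psmd7, Psmc2 and Psme3 were higher (6.47% of all probes). Psmd1, Psmd4, Psmg1 and the dimmer Psmd5 probe were lower (6.97% of all probes). In the authors' processed values 6 members lay apart, all higher (11.3%, against 9.92% of all probes), so none of the 4 lower ones did there. The median change of all probes in those values was itself 0.0257. Cyclic loess left 3 higher and 3 lower. Psmd4, a ubiquitin receptor, read 10.49 and 10.52 in water, 10.46, 10.50 and 10.28 at 1 day, and 10.39, 10.32 and 10.45 at 10 days, a change of -0.12 at 10 days (SE 0.0714). The members with an unadjusted p under 0.05 in limma were Psmd12, Psmd7 and Psmd14 at 1 day, and Psmd12 and Psmd7 at 10 days. With both trehalose times against control, 3 members lay apart (5.66%, against 4.73% of all probes): Psmd12 and Psmd7 higher and Psmd1 lower. Psmd1 rests on values that round to the same level, and under median scaling, cyclic loess and in the authors' processed values 2 members lay apart, both higher (3.77%, against 3.54%, 4.83% and 2.48% of all probes).

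**Figure D3:**
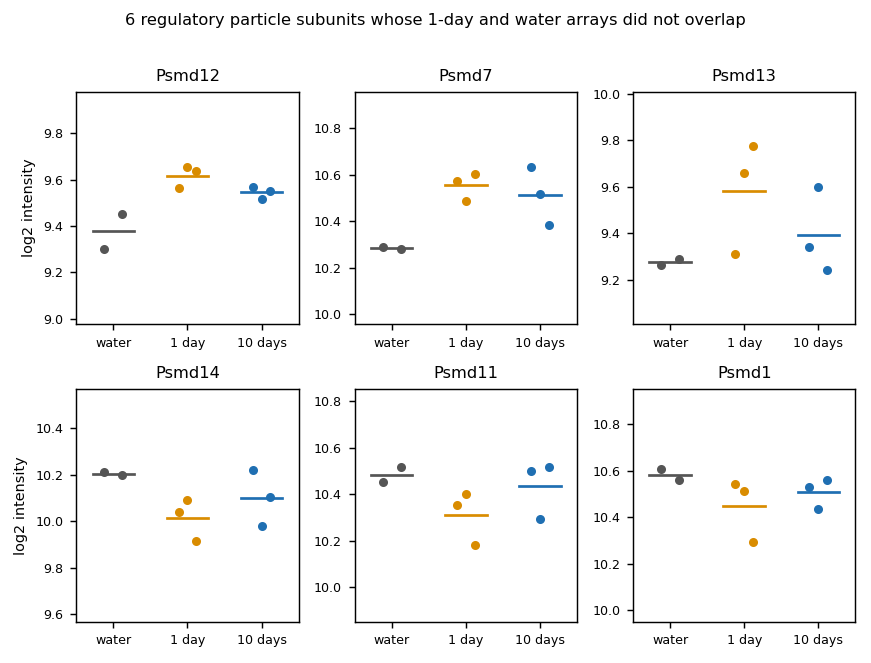
Log2 intensity of the 6 regulatory particle subunits whose 1-day and water arrays did not overlap; points are mice, lines are group means, and every panel spans the same number of log2 units. Psmd12 and Psmd7 stay above water at 10 days, whereas the 10-day mice of Psmd13, Psmd14 and Psmd11 overlap the water mice.

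Of the marker lists of brain regions and cell types, only that of the thalamus had summed levels apart from water at both times. Others lay apart at a single time: the neuron list was below water at 1 day and the microglia list below it at 10 days. The lowest choroid plexus and ependyma level at 10 days, 14.8756, barely exceeded the highest in water, 14.8752. The summed levels of the astrocyte, oligodendrocyte, endothelium, blood cell and lymphocyte lists overlapped those of water at both times. Of 7 tested probes of thalamus genes 6 were higher at 1 day and 7 at 10 days, and their summed log2 level was 11.08 to 11.26 in water, 11.30 to 11.73 at 1 day and 11.37 to 11.57 at 10 days, with no overlap with water. Slc17a6, a glutamate transporter of subcortical neurons, was 0.52 higher at 1 day and 0.35 at 10 days (unadjusted p = 0.00222 and 0.0168 in limma, adjusted p = 1). All 8 probes of striatum genes were lower at 1 day, with summed levels of 12.98 to 13.49 in water and 12.00 to 13.47 at 1 day, which overlap, and at 10 days 3 were higher and 5 lower. The lowest unadjusted p among them at 1 day was 0.0941 in limma. Of 9 neuron probes 7 were lower at 1 day, and their summed level was 14.47 to 14.55 in water, 14.43 to 14.46 at 1 day and 14.35 to 14.52 at 10 days. Of 5 probes of choroid plexus and ependyma genes 4 were higher at 1 day and all 5 at 10 days, with summed levels of 14.65 to 14.88 in water, 14.59 to 15.02 at 1 day and 14.88 on each array at 10 days. Their part in the changes of Psmd12 and Psmd7 was not tested. In whole tissue, a change in the number of cells of a type and a change in RNA per cell cannot be told apart.

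**Figure D4:**
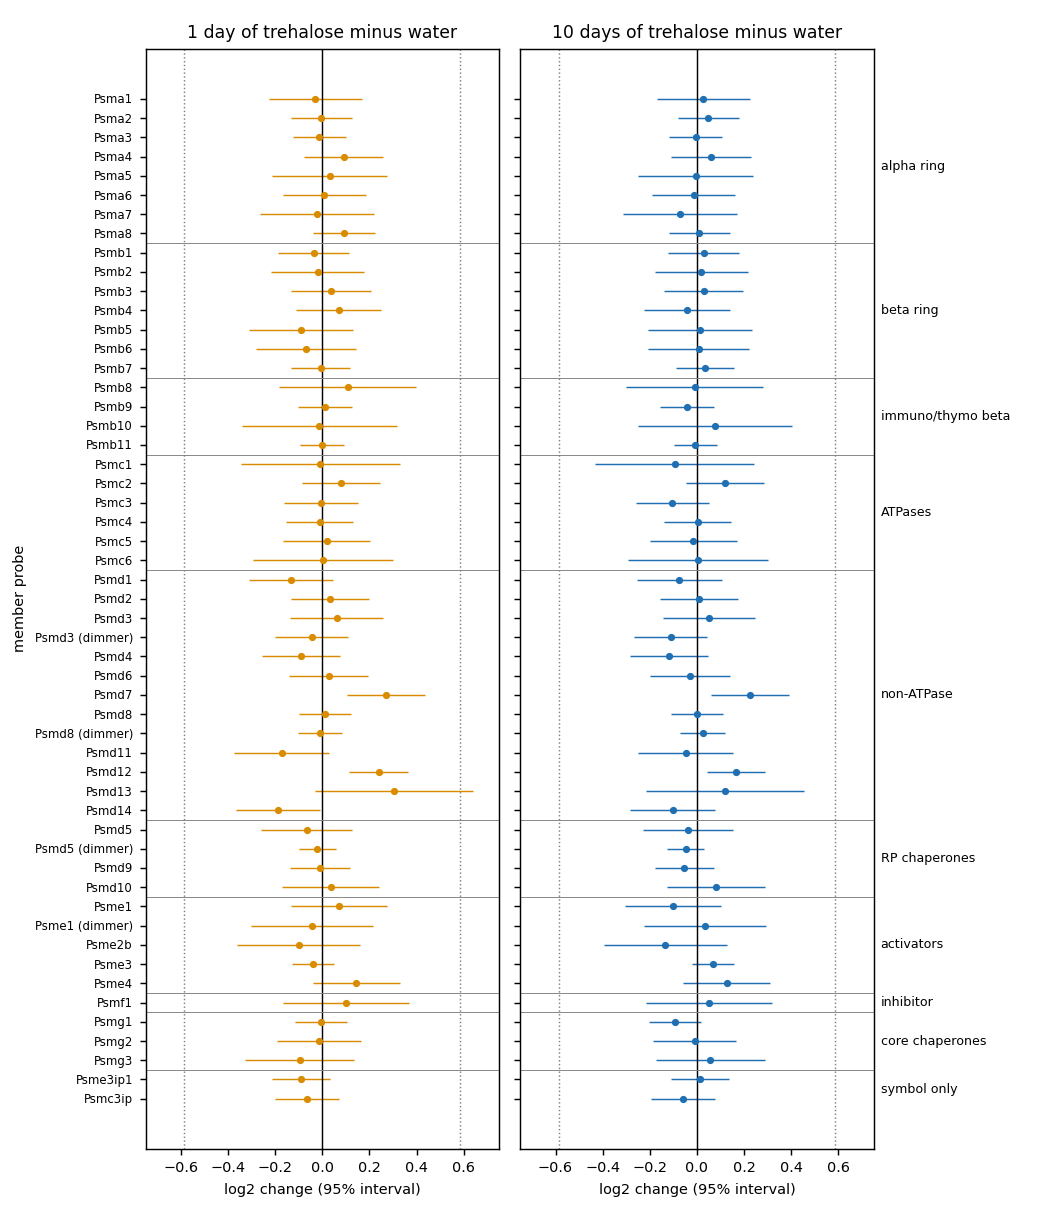
Log2 change of each of the 53 proteasome probes at 1 day (left) and 10 days (right) of trehalose against water, with 95% intervals from limma; dotted lines mark a 1.5-fold change in either direction. Only the interval of Psmd13 at 1 day crosses a dotted line, and those of Psmd12 and Psmd7 lie above 0 in both panels.

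Upstream sequence is given for members whose values stand out and for catalytic subunits that did not, since many proteasome genes share an antioxidant-response type element that the factors Nfe2l1 and Nfe2l2 bind. RefSeq windows of 300 bases, from 250 before to 50 after the start on GRCm38.p6, were at hand for 41 of the 49 genes. The 250 bases before the start are printed 5′ to 3′ on the gene's strand. Capitals mark a match to TGACNNNGC, the core of that element, or, for Psmd14, to CCAAT, the box bound by NF-Y, either of which may lie on the opposite strand.
Psmd12, chr11:107479278-107479527, plus strand: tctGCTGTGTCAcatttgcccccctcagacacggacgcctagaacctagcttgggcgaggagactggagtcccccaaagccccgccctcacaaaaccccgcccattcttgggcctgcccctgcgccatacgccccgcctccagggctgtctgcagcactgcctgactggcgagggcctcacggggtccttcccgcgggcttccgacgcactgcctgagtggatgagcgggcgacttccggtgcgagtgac
Psmd14, chr2:61711444-61711693, plus strand: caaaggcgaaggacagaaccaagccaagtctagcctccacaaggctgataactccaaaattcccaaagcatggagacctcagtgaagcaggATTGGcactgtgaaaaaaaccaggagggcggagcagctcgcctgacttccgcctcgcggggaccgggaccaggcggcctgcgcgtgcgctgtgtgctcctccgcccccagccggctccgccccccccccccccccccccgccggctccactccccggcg
Psmb5, chr14:54617996-54618245, minus strand: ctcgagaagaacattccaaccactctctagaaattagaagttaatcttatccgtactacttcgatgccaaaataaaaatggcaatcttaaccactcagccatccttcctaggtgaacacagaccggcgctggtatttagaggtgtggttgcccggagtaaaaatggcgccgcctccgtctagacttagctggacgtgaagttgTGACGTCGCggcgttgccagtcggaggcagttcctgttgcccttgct
Psmb6, chr11:70525107-70525356, plus strand: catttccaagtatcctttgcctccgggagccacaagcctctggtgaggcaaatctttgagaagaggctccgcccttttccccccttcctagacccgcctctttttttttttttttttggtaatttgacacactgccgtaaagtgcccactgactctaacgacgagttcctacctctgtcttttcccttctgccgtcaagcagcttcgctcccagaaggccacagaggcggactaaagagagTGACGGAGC

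The match in Psmb5 and Psmb6 lies near the start, and that in Psmd12 at the far end of the window. TGACNNNGC, sought on both strands, was found for 6 of the 41 genes (14.6%): Psmb5, Psmb6, Psmc6, Psmd12, Psmd9 and Psme4. Of all 27025 genes with a window 14% held it. CCAAT was found for 16 of the 41 (39.0%), against 41.1% of all genes. The core of an interferon response element, a pair of GAAA runs with 2 free bases between them on either strand, was found for Psmb3, Psmd4, Psmd9 and Psme1 (9.76%), against 3.99%. Of the 6 genes with TGACNNNGC, Psmd12 was the one with an unadjusted p under 0.05 at either time, and Psmd7 had no window here. A match is a run of letters and not a known binding site.

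Activators open the core without the regulatory particle. Psme3, the nuclear activator, read 7.60 and 7.62 in water, 7.55, 7.59 and 7.57 at 1 day, and 7.73, 7.67 and 7.64 at 10 days. All 1-day mice lay below and all 10-day mice above both water mice. The difference between the 2 times was 0.11 (SE 0.0349, 95% interval 0.03 to 0.19, unadjusted p = 0.0152 in limma, adjusted p = 1), and it was the 1 member of 53 to lie apart between the times (1.89%, against 8.39% of all probes) and the 1 with an unadjusted p under 0.05 there (background 3.5%). That count was 2 under median scaling (3.77%, against 6.84% of all probes). It was 6, all higher, in the authors' processed values (11.3%, against 9.25%), and 6, all lower, with the local background column (11.3%, against 13.1%). In the authors' processed values the median of all probes between the times was itself 0.079. Against control the changes of Psme3 in the main fit were -0.04 (SE 0.039) at 1 day and 0.07 (SE 0.039) at 10 days.

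Psme4, an activator that acts on nuclear and acetylated substrates, read 7.62 and 7.91 in water, 7.91, 7.87 and 7.94 at 1 day, and 7.86, 7.93 and 7.87 at 10 days. Water mouse 1 stood apart and the other 7 arrays lay together. The changes of 0.14 and 0.13 became -0.0024 and -0.02 without that mouse, and 0.29 and 0.27 without water mouse 2. Psme1, a subunit of the interferon-inducible activator, has a pair of probes that differed in sign. Its dimmer probe read 8.93 and 9.01 in water, 8.85, 9.04 and 8.89 at 1 day, and 8.77, 9.14 and 9.11 at 10 days. The other read 9.13 and 8.96 in water, 9.17, 9.21 and 8.97 at 1 day, and 9.00, 8.84 and 8.99 at 10 days. Between the times the first differed by 0.08 and the second by -0.17 (SE 0.0785, unadjusted p = 0.062 in limma), so Psme1 has no settled direction. Psme2b read 8.81 and 8.82 in water, 8.69, 8.78 and 8.67 at 1 day, and 8.93, 8.49 and 8.62 at 10 days; the 1-day arrays lay below water, by 0.10 with an SE of 0.113. Psmf1, the inhibitor of the core, read 8.02 and 8.17 in water, 8.25, 8.07 and 8.26 at 1 day, and 7.93, 8.19 and 8.32 at 10 days, with overlap throughout.

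Assembly chaperones showed small values. Psmg1, which with Psmg2 builds the alpha ring, read 8.36 and 8.36 in water, 8.36, 8.39 and 8.30 at 1 day, and 8.20, 8.26 and 8.33 at 10 days. Its 10-day arrays lay below both water arrays, by 0.09 (SE 0.0474, unadjusted p = 0.0841 in limma). Psmg3 read 8.14 and 8.24 in water, 7.90, 8.17 and 8.21 at 1 day, and 8.15, 8.34 and 8.24 at 10 days, with mouse 1 at 1 day the lowest. Of the 4 probes of chaperones of the regulatory particle, Psmd5, Psmd9 and Psmd10, 3 were lower and 1 higher than control at each time. Psme3ip1 read 9.50 and 9.53 in water, 9.41, 9.43 and 9.45 at 1 day, and 9.43, 9.56 and 9.61 at 10 days, so that its 1-day arrays lay below water by 0.09 (SE 0.0532).

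Genes of the proteasome or tied to it under other symbols, with regulators such as Nfe2l1 among them, also lay on both sides of control. Of 11 such probes 7 were higher and 4 lower at 1 day, and 6 higher and 5 lower at 10 days. In limma 0 passed the adjusted threshold and 0 had an unadjusted p under 0.05 at either time. Ecpas, an adaptor that holds core and regulatory particle together, had the lowest p of them at 1 day (0.25, SE 0.115, unadjusted p = 0.0583). Nfe2l1, the factor that raises proteasome genes when the proteasome is blocked, differed from control by -0.14 at 1 day (unadjusted p = 0.113) and 0.018 at 10 days. Of 15 probes of ubiquitin and delivery factors 8 were higher at 1 day and 12 at 10 days. Ubqln2, a shuttle to the proteasome, had the lowest p (0.15 at 1 day, unadjusted p = 0.0319 in limma, adjusted p = 1). Of 11 microglia probes 8 were lower at 1 day and 9 at 10 days, with summed log2 levels of 11.84 to 11.85 in water, 11.71 to 11.86 at 1 day and 11.80 to 11.81 at 10 days.

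The 8 arrays fell into 2 sets by the slope of the line that joins the scanner's gains, as the file headers give it. In set A (water mouse 2, all 1-day mice and mouse 2 at 10 days) the slope of gain 1 on gain 3 was 0.235 to 0.237, and in set B (water mouse 1 and mice 1 and 3 at 10 days) it was 0.244 to 0.245. With the groups in the model, 10 of the 53 proteasome probes differed between the sets at an unadjusted p under 0.05 in limma (18.9%, against 8.04% of all probes), and none passed the adjusted threshold. Psmb1 (-0.15, adjusted p = 0.557), Psma1, Psmb5, Psmb6, Psmb3 and Psme4 were lower in set B, and Psmc5, Psma5, Psmc4 and Psmd5 higher. The set was looked for after the data were seen. The labels also carry a running number for each array, and what it marks is not stated. Entered beside the groups, that number had an unadjusted p under 0.05 in limma for 5 of the 53 probes (9.43%). Over all probes the share was 10.9%, and none passed the adjusted threshold. Psmb10 (unadjusted p = 0.0261 in limma), Psmg3 and Psmb8 (0.0492) rose with the number, and Psmb2 and Psmc3ip fell. With the set as a block the log2 difference from control was 0.22 at 1 day and 0.17 at 10 days for Psmd12, 0.27 and 0.23 for Psmd7, and -0.13 and -0.12 for Psmd14, whose unadjusted p at 1 day was then 0.14 in limma. For Psmd12 it was 0.16 at 1 day and 0.06 at 10 days within set A, and 0.26 at 10 days within set B. For Psmd7 it was 0.27 and 0.24 within set A and 0.22 at 10 days within set B, where the unadjusted p was 0.182 in limma. Each set holds 1 water mouse, and set A holds 1 mouse at 10 days, so these are differences from single mice. For Psmd14 it was -0.18 and -0.22 within set A and -0.05 at 10 days within set B. Psme3 differed between the times by 0.11 with the block and by 0.09 within set A.

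**Figure D5:**
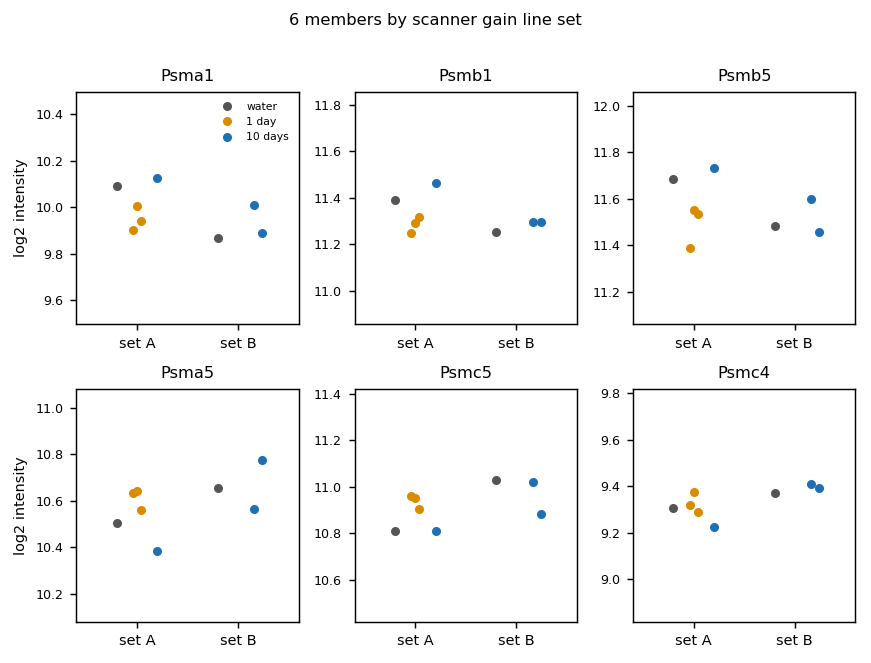
Log2 intensity of 6 proteasome members by the gain line set of the array; points are mice, coloured by group, and every panel spans the same number of log2 units. Psma1, Psmb1 and Psmb5 tend to be lower in set B and Psma5, Psmc5 and Psmc4 higher, in water and 10-day mice alike, and the 1-day mice are all in set A.

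Mice of 1 group also differed in the share of proteasome probes above their mean. On mouse 2 at 1 day 35 of the 53 probes lay above their own 8-array mean (66%), and on mouse 3 at 1 day 17 did (32.1%), whereas over all probes the share was between 45.4% and 51.9% on every array. On mouse 2 at 1 day 7 of 8 alpha ring probes lay above their mean, and on mouse 3 at 1 day 1 of 8 alpha ring and 1 of 7 beta ring probes did. The median deviation of the 53 probes was 0.026 on the first of these mice and -0.031 on the second. These were the highest and lowest of the 8 arrays, picked after the values were seen. Their gap is between single arrays and is not comparable with a difference between group means.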

How the data were processed

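Total RNA of 8 mouse brains was amplified, coupled to Cy5 and hybridised to 1 array each, per the labels' protocols. Per the file headers, the deposited scanner values are the median pixel intensity of every spot, joined from 3 gains. A second deposited table holds the authors' processed intensity per probe, scaled to a median of 25 per array and missing for 1502 to 2763 probes per array; no source used here gives the steps behind it. Log2 intensities were computed from the spots with limma 3.58.1 in R 4.3.3 after normexp correction (offset 50, all 27456 spots) and quantile normalization. Failed spots were set to missing (10 probe spots, none of a proteasome probe). Of 23473 probes, 21583 were tested, those that exceeded a limit of 2 SD over the blank mean (2736 blanks) on 2 or more arrays. Between 86.3% and 92.1% of the probes lay above that limit per array, and the number of arrays limits the precision. All 8 arrays entered 1 limma fit with 3 groups and 5 residual degrees of freedom, with Benjamini-Hochberg adjustment over all tested probes and a threshold of 0.05. The procedure was tested on simulated data with independent normal noise and no technical sets, which does not show how it performs on these arrays. Probes of 1 gene were kept apart, and levels are not compared between single probes.

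The members, gene lists and tests were chosen with earlier results of these data known. Values on every array are given for the catalytic subunits and their immunoproteasome counterparts, the activators and Psmf1. They are also given for the 5 members with the lowest p in each comparison and the 3 with the largest spread. Genes whose probes differ in sign against control are included too. Psma4, Psmd1 and Psmd4 were added after their values were seen. Promoter sequences are from RefSeq.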

Additional observations from a re-analysis of the deposited data

Results flagged for a closer look

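Psme3, the nuclear activator, drew attention because its groups moved to opposite sides of control: all 3 mice at 1 day lay below both water mice and all 3 at 10 days above both. The difference between the times was 0.108 on the log2 scale (limma, unadjusted p = 0.0152, adjusted p = 1). It remained between 0.0829 and 0.127 when any 1 mouse was left out, was 0.107 with the gain set as a block (unadjusted p = 0.0527 in limma), and was 0.233 in the authors' processed values, where the median of all probes was 0.079. With the local background column the 10-day change against control was -0.131, so that both times lay below control. No other proteasome member had its 1-day and 10-day mice on opposite sides of both water mice.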

How the results depend on the processing

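No proteasome probe passed the adjusted threshold in limma under any of the settings run. The number of all probes past it, 0 in each comparison, became 2 without water mouse 1 in the 3 comparisons with control (range over single mice left out 0 to 2), 1 within gain set A in the same comparisons, and 1 at 10 days against control and between the times with the blank mean subtracted or with trended, robust variances. The median change of the proteasome probes became -0.0394 at 1 day, -0.0541 at 10 days and -0.0541 for both times together with the local background column, and -0.0559 at 1 day, 0.0334 at 10 days and 0.0624 between the times in the authors' processed values, where the medians of all probes were -0.0527, 0.0257 and 0.079. The local background follows the spots themselves (correlation 0.943 to 0.985 per array), and the cause of the changes under it was not tested. Under it Psmd7 at 1 day reversed to -0.147 and Psmd12 at 10 days to -0.000365. Other changes of opposite sign included Psmd11 (0.231), Psmb6 (0.336) and the brighter Psme1 probe (-0.648) at 1 day, and Psme3 at 10 days (-0.131). Psmc2 was -3.22 at 1 day and -1.29 at 10 days, against 0.079 and 0.12 in the main fit. Psmd13 kept its sign at 1.28 and 1.3, as did Psme4 at 10 days (0.85). The replicate number used as a block called 0 probes, and gave Psmd12 0.233 and 0.161 and Psmd7 0.29 and 0.247 at 1 and 10 days; no adjusted call changed, and Psmd14 at 1 day had an unadjusted p of 0.0827 in limma. Same-numbered mice had correlations of their deviations, across probes, of -0.0247 to 0.26 (7 pairs, 1 of them below 0.1). Others had correlations of -0.315 to 0.213 (14 pairs), so same-numbered pairs tended to be higher. Deviations within a group are tied, and those of the 2 water mice mirror each other. The pairs are therefore not independent and cannot decide whether the numbers mark a pairing. The labels state none, so the main fit had no block. Within gain set B only 10 days against control could be fitted, and 2 groups alone were not fitted for both times together. With 2 water mice, the sizes of the changes of Psmd12 and Psme4 depended on which of them was kept.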
